A study of Populus ussuriensis with 9 samples.

Results

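The genes described here are the 4 loci listed as the Rubisco small subunit pair and the Rubisco activase pair of poplar, out of 29764 loci in the table. They were taken by their locus IDs, and all 4 were present: Potri.004G100000.v3.0 and Potri.017G114600.v3.0 for the small subunit (RBCS), and Potri.008G058500.v3.0 and Potri.010G200500.v3.0 for the activase. The digits before the G in an ID give its chromosome, so the RBCS genes lie on chromosomes 4 and 17 and the activase genes on chromosomes 8 and 10. The table gives no names beside its IDs, and these 4 were called RBCS or activase because they were listed as such; this was not checked by sequence.

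Rubisco is the chloroplast enzyme that fixes CO2 in the Calvin cycle. It is built from large subunits, encoded in the chloroplast genome, and small subunits, encoded by the nuclear RBCS family. Rubisco activase is a nuclear-encoded chloroplast ATPase that removes inhibitory sugar phosphates from the active site and so keeps Rubisco working. Both kinds of transcript are known to be abundant in green leaf, and in land plants both are known to respond to light and to water deficit.

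RNA-seq was done on fully expanded leaves of the poplar Populus ussuriensis, grown in a greenhouse to 6 months of age. The genotypes were wild type (WT), the line OE14 with a moderate level of LbDREB6 overexpression, and the line OE18 with a high level, with 3 libraries each. DREB factors are plant transcription factors named for dehydration-responsive element binding. All plants, WT included, had water withheld, for 2 weeks by the sample descriptions and 1 week by the treatment protocol, and no watered plants were analysed here. The labels do not name the promoter of the transgene, and each level of overexpression was 1 line, so level and line cannot be told apart. LbDREB6 itself was not analysed here. Levels are given as FPKM, in which fragments are divided by gene length and by the library's assigned reads, and the libraries held 10988010 to 16221919 assigned reads. Between libraries of 1 genotype, the median chi-square of read counts was 1.66 to 2.42 times what sampling gives, and each was counted as a separate replicate. This spread does not show that the libraries came from separate plants. Across genes, the log2(FPKM + 1) values of libraries of 1 genotype had a Pearson's r of 0.991 to 0.994, and those of different genotypes one of 0.772 to 0.952.

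All 4 genes were abundant in every library, at rank 145 or better by FPKM. This goes with the labelled tissue, green leaf, for which no other marker could be used. In WT the order of the levels, on the per-length FPKM scale, was RBCS on chromosome 17, activase on chromosome 10, RBCS on chromosome 4 and activase on chromosome 8. They stood at ranks 21 to 22, 22 to 23, 68 to 70 and 141 to 145 among all loci of a WT library. The upper pair in this order was close, with 1464 to 1469 FPKM for the RBCS gene and 1393 to 1434 FPKM for the activase gene, and the libraries did not overlap. In OE18 both RBCS genes stood above both activase genes, at ranks 1 to 2 and 4, while the activase genes stood at ranks 6 and 53 to 61. Together the 4 genes made up 0.737% ± 0.0012 of all FPKM in WT, 0.929% ± 0.024 in OE14 and 2.75% ± 0.12 in OE18 (SD, n = 3 each). In leaf tissue as a whole, a change in the number of cells of a type and a change in RNA per cell cannot be told apart.

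**Figure D1:**
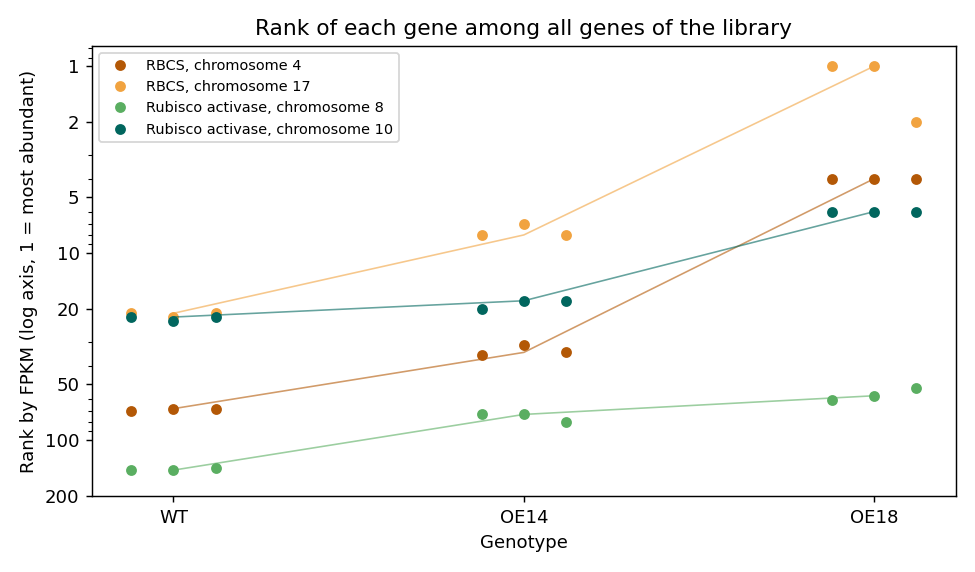
Rank of each gene by FPKM among all loci of its library (vertical log axis, 1 is the most abundant) by genotype; each point is 1 library and lines join the group medians. RBCS on chromosome 17 moved from rank 21 to 22 in WT to rank 1 to 2 in OE18, and activase on chromosome 10 stood at rank 18 to 20 in OE14 against 22 to 23 in WT.

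The comparison of each line with WT asked how the leaf transcripts of the 4 listed loci differed in the LbDREB6 overexpression lines under drought. The large subunit of Rubisco was not examined. Both RBCS genes rose in OE14 and rose further in OE18. The RBCS gene on chromosome 4 had 604, 608 and 612 FPKM in the WT libraries, 892, 949 and 890 in OE14, and 4158, 3973 and 3918 in OE18. No library of one genotype overlapped with those of another. Its mean was 1.50 times the WT level in OE14 (log2 fold change 0.58, SE 0.042, limma adjusted p = 8.2e-08) and 6.60 times in OE18 (2.72, SE 0.042, adjusted p = 2.0e-15).

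The RBCS gene on chromosome 17 was the more abundant of the pair in every library. It had 1464, 1464 and 1469 FPKM in WT libraries, 2220, 2274 and 2199 in OE14 libraries and 8677, 8033 and 7560 in OE18. Again the 3 genotypes were fully separate, and in 2 of the 3 OE18 libraries this was the most abundant transcript of all. Its mean was 1.52 times the WT level in OE14 (log2 fold change 0.61, SE 0.051, limma adjusted p = 3.6e-07) and 5.52 times in OE18 (2.46, SE 0.051, adjusted p = 3.2e-14).

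The activase genes took different courses in OE14. The activase gene on chromosome 8, the lowest of the 4 genes in every library, had 373, 365 and 365 FPKM in WT libraries, 578, 591 and 550 in OE14 libraries and 717, 697 and 727 in OE18. Every OE14 library lay above every WT library and every OE18 library above every OE14 library. The mean was 1.56 times the WT level in OE14 (log2 fold change 0.64, SE 0.040, limma adjusted p = 1.7e-08) and 1.94 times in OE18 (0.95, SE 0.040, adjusted p = 3.6e-11).

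The activase gene on chromosome 10, the more abundant of its pair, fell in OE14, in the values as deposited but not after quantile normalization, and rose in OE18. It had 1434, 1431 and 1393 FPKM in WT libraries, 1196, 1203 and 1143 in OE14 libraries and 2642, 2488 and 2598 in OE18. The OE14 libraries lay below and the OE18 libraries above those of WT. The mean in OE14 was 0.832 times that of WT (log2 fold change -0.27, SE 0.042, limma adjusted p = 0.00013), and in OE18 it was 1.81 times that of WT (0.86, SE 0.042, adjusted p = 2.2e-10). The direction in OE14 depended on the scaling: after quantile normalization, which assigns values by rank, the log2 fold change was 0.11 (adjusted p = 0.018), since the rank of this gene was higher in OE14 (18 to 20) than in WT (22 to 23) although its FPKM was lower. Under median-of-ratios scaling it was -0.34, and with every library rescaled to the same sum -0.27.

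**Figure D2:**
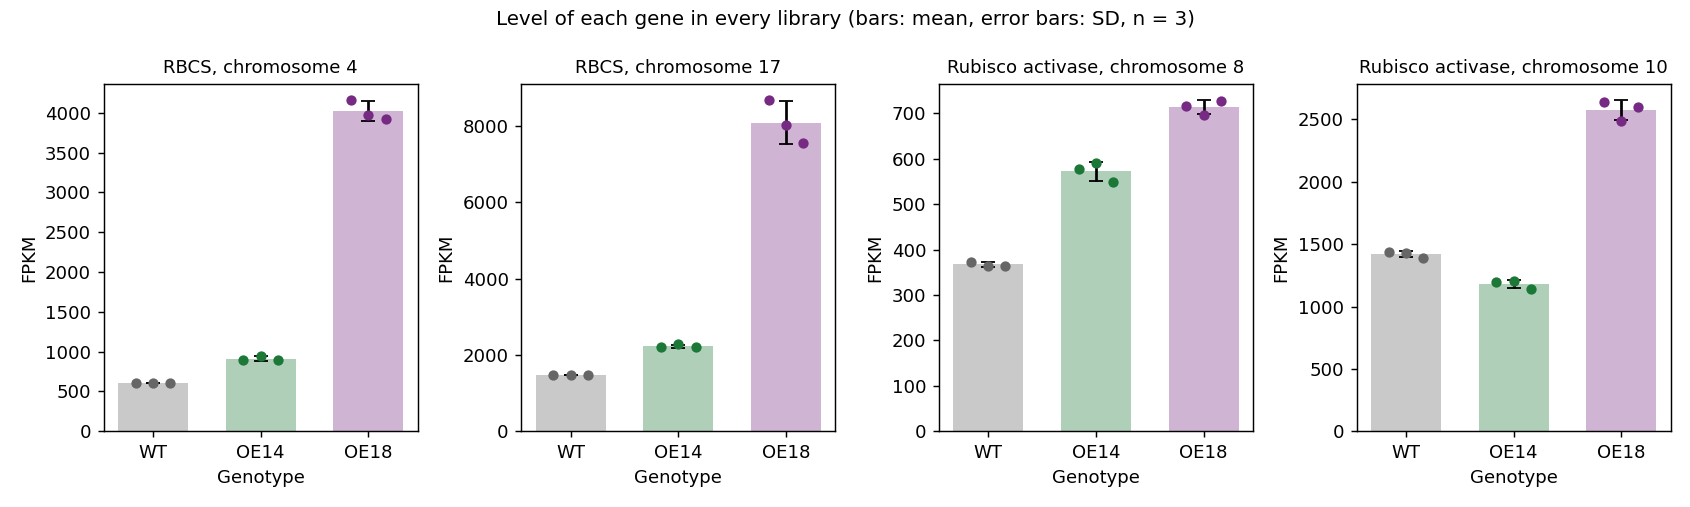
FPKM (vertical axes, each starting at 0 and each with its own scale) of the 4 genes by genotype; points are the 3 libraries, bars are means and error bars SD. The RBCS genes rise from WT to OE14 to OE18, whereas activase on chromosome 10 is lower in OE14 (1143 to 1203) than in WT (1393 to 1434); the direction of that difference turned after quantile normalization.

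The third comparison set OE18 directly against OE14, and all 4 genes were higher in OE18. The log2 fold change was 2.14 for RBCS on chromosome 4 (95% interval 2.05 to 2.23, limma adjusted p = 3.9e-14) and 1.86 for RBCS on chromosome 17 (1.75 to 1.97, adjusted p = 7.8e-13). For the activase it was 0.32 on chromosome 8 (0.23 to 0.40, adjusted p = 5.2e-06) and 1.12 on chromosome 10 (1.03 to 1.22, adjusted p = 1.5e-11). Within the activase pair, the chromosome 10 gene had the larger value, and the intervals did not overlap. The comparisons with WT share the WT libraries and those with OE14 share the OE14 libraries.

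Calls were common across all genes, and the calls of the 4 genes are read against that background. In OE14 against WT, 3 of the 4 genes were called higher, as were 31.9% of the 22848 genes tested, and 1 was called lower, as were 20.9%. In OE18 against WT all 4 were called higher, against 41.6% of the genes tested (37.9% were called lower), and in OE18 against OE14 all 4 again, against 38.8%. The libraries of the compared genotypes did not overlap for any of the 4 genes in any of the comparisons, which was so for 60.4%, 80.3% and 79.1% of the genes tested in OE14 against WT, OE18 against WT and OE18 against OE14. The median log2 fold change of the 4 genes was 0.59, 1.71 and 1.49 in these comparisons, and that of all genes tested was 0.07, 0.03 and -0.01.

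In OE18 against WT both RBCS genes were called higher by 4-fold or more, as were 6.26% of the genes tested. Of the 22848 genes, 684 had a larger log2 fold change than RBCS on chromosome 4 and 881 a larger one than RBCS on chromosome 17. The activase genes, with 80.3% and 78.2% of the genes tested below them, were less extreme. In OE14 against WT the genes that rose were exceeded by 2257 to 2682 others, and activase on chromosome 10 had 19.0% of the genes tested below it.

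**Figure D3:**
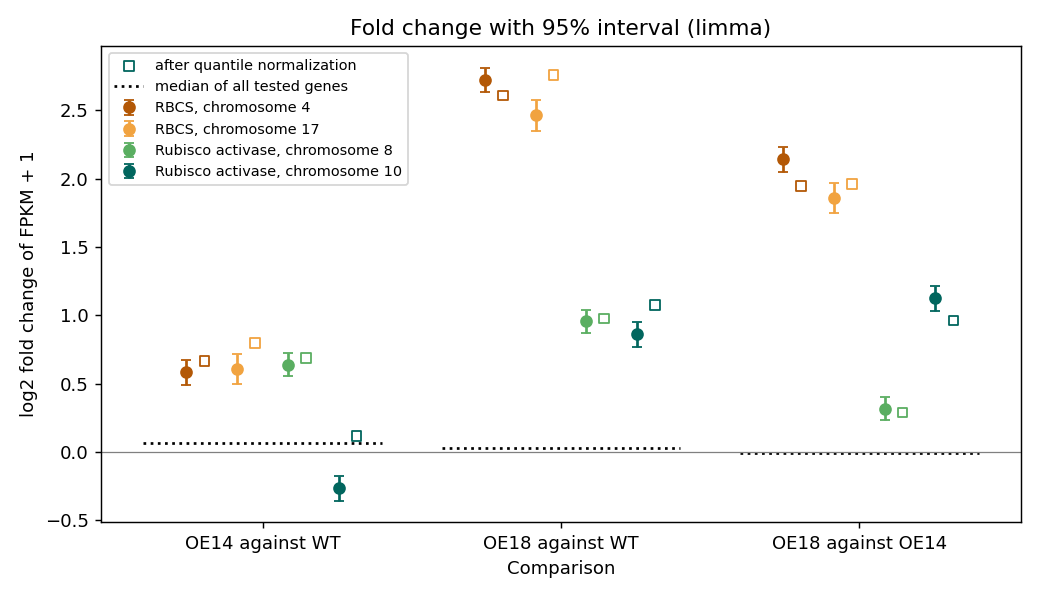
Log2 fold change of FPKM + 1 (vertical axis) of the 4 genes in the 3 comparisons; filled circles are limma estimates with 95% intervals, open squares are the values after quantile normalization, and dotted lines are the medians of all genes tested. The RBCS genes reach 2.72 and 2.46 in OE18 against WT, and activase on chromosome 10 in OE14 against WT is the only value shown that lies on the other side of 0 after quantile normalization (-0.27 and 0.11).

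Ratios within a library do not depend on a common scaling factor for that library, and they show how the balance of the genes differed. Quantile normalization, which is no such factor, does not keep them. The summed RBCS level was 2068, 2072 and 2080 FPKM in WT libraries, 3112, 3223 and 3090 in OE14 libraries and 12835, 12006 and 11478 in OE18, which is 1.51 times the WT mean in OE14 and 5.84 times in OE18. The summed activase level was 1808, 1796 and 1758 FPKM in the WT libraries and 1774, 1794 and 1692 in those of OE14, and these overlapped. In OE18 it was 3358, 3185 and 3325 FPKM, which is 1.84 times the WT mean. RBCS made up more of the summed level of the 4 genes in OE14 than in WT, and more again in OE18. The ratio of summed activase to summed RBCS FPKM stepped down from 0.862 ± 0.015 in WT through 0.558 ± 0.011 in OE14 to 0.272 ± 0.015 in OE18 (SD, n = 3 each). No libraries of different genotypes overlapped in this ratio. Counted in reads, where the longer activase genes weigh more, the ratio was 1.78 in WT, with activase above RBCS, 1.13 for OE14 and 0.566 for OE18.

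In the values as deposited, the RBCS genes had nearly the same proportion in WT and OE14. The chromosome 4 gene held 29.2%, 29.3% and 29.4% of the summed RBCS level in WT and 28.7%, 29.4% and 28.8% in OE14, and these overlapped (difference -0.35 percentage points, exact permutation p = 0.4, two-sided). In OE18 it held 32.4%, 33.1% and 34.1%, above every library of the other genotypes, so that the chromosome 17 gene was 2.01 ± 0.079 times as abundant as its partner there and 2.41 ± 0.011 times in WT (SD, n = 3 each). This separation did not hold after quantile normalization. There the share of the chromosome 4 gene ran from 32.4% to 33.4% in WT, from 30.7% to 31.1% in OE14 and from 27.2% to 38.3% in OE18. The OE18 libraries thus lay on both sides of the others. Their spread came from the chromosome 17 gene, which was assigned 6097 to 10141 FPKM at ranks 1 to 2, while the chromosome 4 gene was assigned 3788 FPKM throughout.

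In the activase pair it was OE14 that stood apart. The chromosome 10 gene held 79.3%, 79.7% and 79.2% of the summed activase level in WT libraries, 67.4%, 67.1% and 67.5% in OE14 libraries and 78.7%, 78.1% and 78.1% in OE18. The difference from WT was -12.1 percentage points in OE14 and -1.12 points in OE18, without overlap in either case, and -7.67 and 1.18 points after quantile normalization, so that the direction in OE18 turned. The summed activase level of OE14 had a mean of 1754 ± 54 FPKM against 1787 ± 26 in WT (SD, n = 3 each), 0.981 times the WT level, or 1.20 times after quantile normalization. For 8 of the 9 exact permutation tests on the shares and on the activase to RBCS ratio, the two-sided p was 0.1, the smallest that 3 libraries against 3 can give (0.113 after Benjamini-Hochberg adjustment over the 9), so none could pass a threshold of 0.05. Whether the counting split reads shared between the similar genes of a pair is not given in the sources used here, so single-gene levels are less certain than the sums. The sums hold the listed loci only. Other RBCS or activase loci, and reads shared with them, were not examined.

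**Figure D4:**
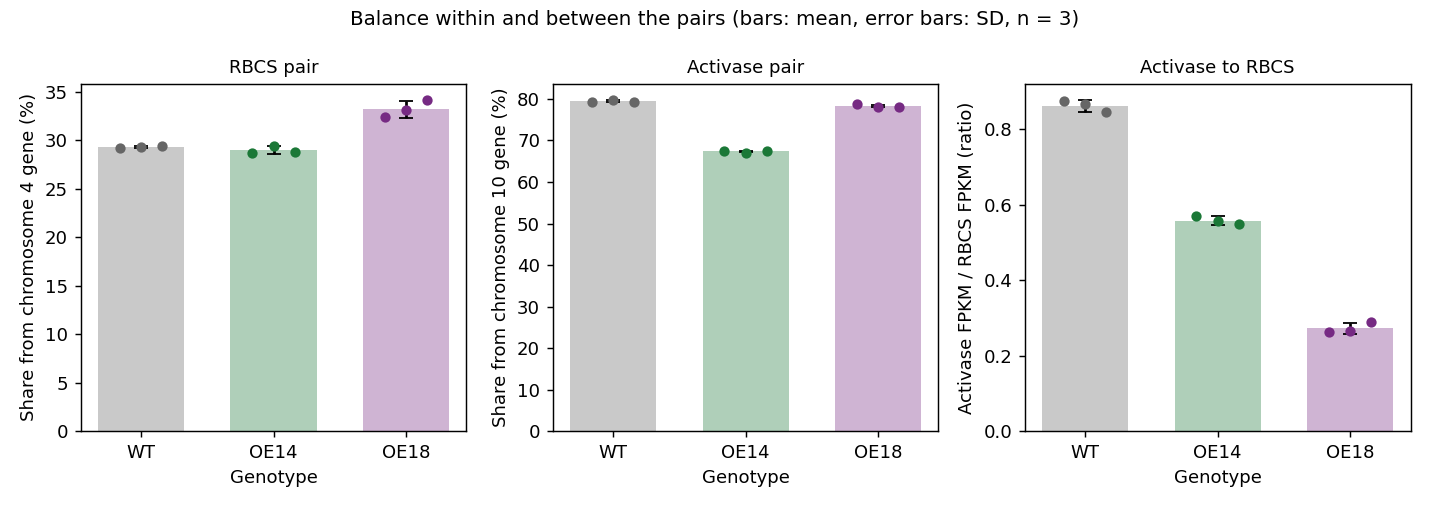
Share of the chromosome 4 gene in the summed RBCS level (left, %), share of the chromosome 10 gene in the summed activase level (middle, %), and ratio of summed activase to summed RBCS FPKM (right) by genotype; points are the 3 libraries, bars are means and error bars SD. The activase share dips in OE14 (67.1% to 67.5%), and the ratio steps down from 0.862 in WT through 0.558 in OE14 to 0.272 in OE18. The share of the chromosome 4 RBCS gene is higher in OE18, which did not hold after quantile normalization.

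The depth behind these values was high. The gene with the fewest reads, RBCS on chromosome 4, had 8944 to 10448 reads in a WT library, and RBCS on chromosome 17 had 131499 to 184636 in an OE18 library. In WT the libraries lay very close together: the coefficient of variation was 0.178% for RBCS on chromosome 17 and 0.607% for RBCS on chromosome 4, below the 0.597% and 1.03% that counting error alone gives, and 1.34% and 1.62% for the activase genes on chromosomes 8 and 10, above the 0.902% and 0.427% from counting. In the transgenic lines every gene varied more than counting error. The largest spread was 6.93% for RBCS on chromosome 17 in OE18, against 0.247% from counting.

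The RBCS genes were part of a larger FPKM sum in OE18. FPKM summed to a mean of 559195 per OE18 library and 524176 per WT library, and the summed RBCS level was higher by 10033 FPKM, which is 28.6% of the difference between these sums. That difference is net of genes that rose and genes that fell, so the percentage is not the RBCS share of all rises. The gene lengths that the values imply were 1291 bases for RBCS on chromosome 4, 1583 for RBCS on chromosome 17, and 2760 and 3184 for the activase genes on chromosomes 8 and 10. Genes in the same length decile as these 4 had median log2 fold changes in OE18 against WT of 0.18, 0.13, -0.04 and -0.09 in the same order, each well below the value of its member.

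The genes with the most similar course over the 9 libraries were far less abundant than the 4 genes. Likeness was the root-mean-square difference of log2(FPKM + 1), each gene centred on its own mean, among 15043 other genes with a mean of 5 FPKM or more. The closest to RBCS on chromosome 4 was Potri.016G033200.v3.0, at a difference of 0.054, with 25.5 ± 0.47 FPKM in WT, 41.3 ± 2.8 in OE14 and 178 ± 5.6 in OE18 (SD, n = 3 each). The closest to RBCS on chromosome 17 was Potri.004G147300.v3.0, at 0.047, with 50.6 ± 2.1, 76.4 ± 0.45 and 295 ± 15 FPKM. These genes are not named in the table.

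The closest to activase on chromosome 8 was Potri.004G078200.v3.0, at a difference of 0.045, with 12.4 ± 0.32 FPKM in WT, 19.4 ± 0.31 in OE14 and 23.6 ± 0.50 in OE18 (SD, n = 3 each). The closest to activase on chromosome 10 was Potri.006G253100.v3.0, at 0.037, with 51.7 ± 1.6, 41.7 ± 0.56 and 94.8 ± 2.0 FPKM. The RBCS genes were close to each other, at 0.132, and took places 38 and 54 in each other's order of likeness. The activase genes were further apart, at 0.406, and took places 3789 and 4608.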

How the data were processed

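The authors deposited 1 table of FPKM for 29764 loci and 9 libraries. Bowtie2 2.2.3 and HISAT2 2.1.0 were used, per the submitters' processing notes. How reads were counted, with which build and annotation and with or without strand, was not given in the sources used here. The 6 OE14 and OE18 columns match sample titles, and the columns headed with C were taken as WT by elimination. The series describes the libraries as biological replicates, and nothing says that they came from separate plants, so p-values may measure technical spread only.

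Library totals and reads were recovered from the FPKM steps: 29005 loci with reads in 2 or more libraries all gave whole reads and a whole gene length within 1e-05 reads. The 22848 genes that reached 1 FPKM in 3 libraries or more were tested as log2(FPKM + 1) in 1 limma 3.58.1 fit over the 9 libraries (R 4.3.3, variance trend, 6 residual degrees of freedom, two-sided), with Benjamini-Hochberg adjustment over all genes tested and calls at an adjusted p under 0.05. Shares and ratios were compared by exact permutation tests (scipy 1.17.1). The recovery of reads and the limma fit for OE14 against WT were tested on simulated data, and the other steps were not. The members, the rule for the closest genes and the tests were chosen with earlier results of these data known. The closest gene to each member was named by a fixed rule. Gene lists for the Calvin cycle, Rubisco assembly and photorespiration had been fixed by gene description and were not used here, since no annotation was at hand; no sequences are shown for the same reason. Alternatives were other pseudocounts, filters and scalings, limma voom on the recovered reads, a replicate block, and leaving out each library.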

Additional observations from a re-analysis of the deposited data

Results flagged for a closer look

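The transcript level differed between the lines for all 4 genes by the direct limma test of OE18 against OE14. Level of overexpression and line cannot be told apart in it. The log2 fold change of this test equals the difference between the lines' changes from WT. It was 2.14 for RBCS on chromosome 4, 1.86 for RBCS on chromosome 17, 0.32 for activase on chromosome 8 and 1.12 for activase on chromosome 10, each with 3 of 3 OE18 libraries above every OE14 library. A higher level in OE18 than in OE14 was called for 38.8% of the genes tested, and 8876 of the 22848 were called lower. The libraries of these lines did not overlap for 79.1% of the genes tested, so such a difference was common.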

How the results depend on the processing

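Of 180 values, the 12 fold changes of the 4 genes under 9 other settings and under the settings that leave out 1 library of either genotype compared, 179 kept their direction and their call. The exception was activase on chromosome 10 in OE14 against WT after quantile normalization, 0.11 in place of -0.27. Without 1 library the value as deposited ran from -0.28 to -0.24. Other filters and the replicate block leave a fold change as it is, and other pseudocounts hardly move genes this abundant. Under these settings only the call could differ, so they did not test the direction. With quantile normalization the median over all genes tested was -0.14 for OE18 against WT (0.03 as deposited) and -0.11 for OE18 against OE14 (-0.01 as deposited). Relative to that median, RBCS on chromosomes 4 and 17 had 2.69 and 2.43 in OE18 against WT as deposited and 2.75 and 2.90 after quantile normalization. For summed RBCS the ratio to WT was 1.44 in OE14 with median-of-ratios scaling, 1.69 in OE14 and 6.67 in OE18 after quantile normalization, and 5.47 in OE18 with libraries rescaled to the same sum. For summed activase it was 0.935 in OE14 with median-of-ratios scaling, 1.20 in OE14 (0.981 as deposited, so the direction turned) and 2.08 in OE18 after quantile normalization, and 1.73 in OE18 with the same sum. Summed activase in OE18 against OE14 was 1.77 with the same sum and 1.73 after quantile normalization, against 1.88. Quantile normalization of the shares and the ratio was added after seeing the data. After it, the share of the chromosome 4 RBCS gene differed by -1.99 percentage points in OE18 against WT (exact permutation p = 0.6). In OE18 against OE14 it differed by -0.0068 (exact p = 1.0), and in both comparisons the libraries overlapped. For the share of the chromosome 10 activase gene the direction turned, to 1.18 in OE18 against WT (exact p = 0.1). On recovered reads the activase to RBCS ratio differed from WT by -0.648 in OE14 and -1.22 in OE18, against -0.304 and -0.590 on FPKM, because the longer genes weigh more. Of 15044 genes averaging at least 5 FPKM, 5933 were called higher and 6642 lower in OE18 against WT (9510 and 8648 of all tested). OE18 against OE14 gave 5536 and 6889 (8869 and 8876). Libraries of the same number did not deviate together (r of -0.02 to 0.10 across genes), so the numbers do not pair them; with the replicate block the largest adjusted p of the 12 was 0.00018, and 7371 genes were called higher and 4881 lower in OE14 against WT, against 7297 and 4777.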

Other observations

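The 20 tested loci nearest to each gene by ID number, 10 on each side, changed in both directions. In OE18 against WT, the neighbours of RBCS on chromosome 4 had a median log2 fold change of 0.33, with 12 called higher and 6 lower by limma, and those of RBCS on chromosome 17 had 0.22, with 10 higher and 6 lower. The neighbours of the activase genes on chromosomes 8 and 10 had medians of -0.16 and -0.28, with 10 and 11 of 20 called lower, against 37.9% of all genes tested, while the activase genes themselves rose. Of all genes tested, 41.6% were called higher. In OE14 against WT the medians around the 4 genes lay between -0.05 and 0.09. Positions follow the order of the IDs, and whether these plants have the same order was not examined.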
